A study of Mus musculus with 12 samples.

Results

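Motile cilium and ependymal genes were followed across all 4 groups of the experiment. They were taken from the deposited count table by symbol: every gene whose symbol starts with Dnah, Dnaic, Dnal, Dnaaf, Rsph or Tekt, together with Foxj1, Mcidas, Rfx2, Rfx3, Rarres2, Enkur, Ccdc153, 1700009P17Rik, Tppp3, Ccdc39, Ccdc40, Hydin, Spag6, Spag16 and Spag17. The table lists 45 such genes among 24108. All 45 had at least 1 count in some library, 37 had counts in all 12 libraries, and 39 passed the low-count filter and were tested.

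Bulk RNA-seq was performed on neural progenitor cells (NPCs) isolated from the subventricular zone (SVZ) of C57BL/6 mice at postnatal days 9 to 12. There were 12 libraries in 4 groups of 3: p53+/+ alone, p53+/+ co-culture, p53-/- alone and p53-/- co-culture. NPCs alone grew on laminin-coated plates, whereas co-culture meant 48 h of contact with brain microvascular endothelial cells (bmvECs), from which NPCs were then freed by selective trypsinization. The study compares these cultures to ask how p53 acts in NPCs held quiescent by endothelial contact. In the study's methods, p53-/- NPCs are p53LoxP/LoxP NPCs infected with an adenovirus that expresses Cre from the CMV promoter, and the control virus carries that promoter without Cre. The labels call the p53+/+ libraries wild type, and whether those cells carried loxP alleles or received the control virus is not given in the labels. Experiments 17_9, 25_9 and 1_10 each gave 1 library to every group.

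Motile cilia beat because dynein arms slide neighbouring microtubules of the axoneme past each other. Outer and inner dynein arms, radial spokes and a central apparatus set the stroke, and the arms are put together in the cytoplasm by dedicated assembly factors before transport into the cilium. In the SVZ, ependymal cells carry tufts of motile cilia that move cerebrospinal fluid, and the transcription factor Foxj1, with RFX factors, drives the genes of this machinery. Ependymal cells and adult neural stem cells arise from radial glia, and the stem cells themselves bear a single primary cilium.

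Trp53 was 80.3 to 109 CPM (counts of a gene relative to all counts of its library, on TMM-scaled library sizes) in p53+/+ NPCs alone and 11.7 to 17.4 CPM in p53-/- NPCs alone. It was 61.8 to 78.7 CPM in p53+/+ co-cultures and 13.7 to 19.3 CPM in p53-/- co-cultures, so the levels follow the labels in all 12 libraries. The progenitor marker Nes was at 833 CPM or more in every library. Markers fixed for ependymal cells were uneven: besides Foxj1, described below, Tmem212 was at or near 0 (at most 0.10 CPM in any library) and Fam183b did not exceed 2.75 CPM. Of the defining choroid plexus markers, Ttr did not exceed 0.455 CPM and Kcnj13 did not exceed 0.125 CPM, while Folr1 reached 1.25 CPM. The summed level of the 12 choroid plexus markers was 13.9 to 20.6 CPM over all libraries. The alone libraries of experiment 17_9 stood apart in the 13 mural and fibroblast markers, with summed levels of 692 CPM (p53+/+) and 1230 CPM (p53-/-) against 85.9 to 158 CPM in the other 10 libraries. They were also the highest of their group for 30 (p53+/+) and 27 (p53-/-) of the 39 tested cilium genes, so values without them are given below. Libraries of experiment 1_10 were the lowest of their group for 20 (p53+/+ alone), 33 (p53+/+ co-culture), 24 (p53-/- alone) and 16 (p53-/- co-culture) of the 39.

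With p53 absent, part of this gene set was at a lower level in each culture. In NPCs alone, 12 of the 39 tested genes were lower in p53-/- than in p53+/+ NPCs and 0 were higher (edgeR, adjusted p under 0.05, against a background of 4.27% of all tested genes called lower and 2.02% called higher). In co-culture, 17 were lower and 0 higher, against 4.93% and 3.24% of all genes. The lower genes made up 30.8% and 43.6% of the tested genes of the set. The genes lower in both cultures were Foxj1, Rarres2, Ccdc153, Ccdc40, Dnah11, Dnaic1, Dnali1, Rsph1 and Rsph4a. How far the calls of all tested genes overlap between the cultures was not counted. Dnah5, Dnah7b and Dnah9 were called in NPCs alone and not in co-culture. Dnah2, Dnah6, Dnaaf3, Tekt1, Tekt4, Spag6, Enkur and 1700009P17Rik were called in co-culture and not alone. The 2 comparisons share no library, but both come from the same 3 experiments and use the spread fitted over all 12 libraries. In bulk RNA, fewer cells of a type and less RNA per cell cannot be told apart.

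The median log2 fold change with p53 loss was -0.72 over the tested cilium genes in NPCs alone and -0.98 in co-culture, against 0.05 and 0.02 over all tested genes. All 3 p53-/- libraries lay below all 3 p53+/+ libraries for 17 genes alone (12.4% of all tested genes did so) and for 25 genes in co-culture (16.9% of all). The reverse held for 2 genes alone (15% of all) and for 0 in co-culture (14.4% of all). Within experiments, 26 of the 39 genes were lower in the p53-/- library in every experiment in NPCs alone and 31 in co-culture. For 3 genes alone and 4 in co-culture, p53-/- was higher in every experiment. Of all 13745 genes, 3333 alone and 4154 in co-culture were lower in every experiment, and 4240 and 4402 were higher. At an unadjusted p under 0.05, 2 genes were higher alone (Hydin and Dnaaf2) and 1 in co-culture (Dnaaf2), against 1657 and 1727 of all 13745 genes, and DESeq2 called 0 higher in either culture. When experiment entered the model as a block, 17 genes were lower alone and 25 in co-culture, against 9.33% and 10.9% of all genes, and 0 and 1 (Dnaaf2) were higher, against 7.25% and 9.99% of all genes.

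**Figure D1:**
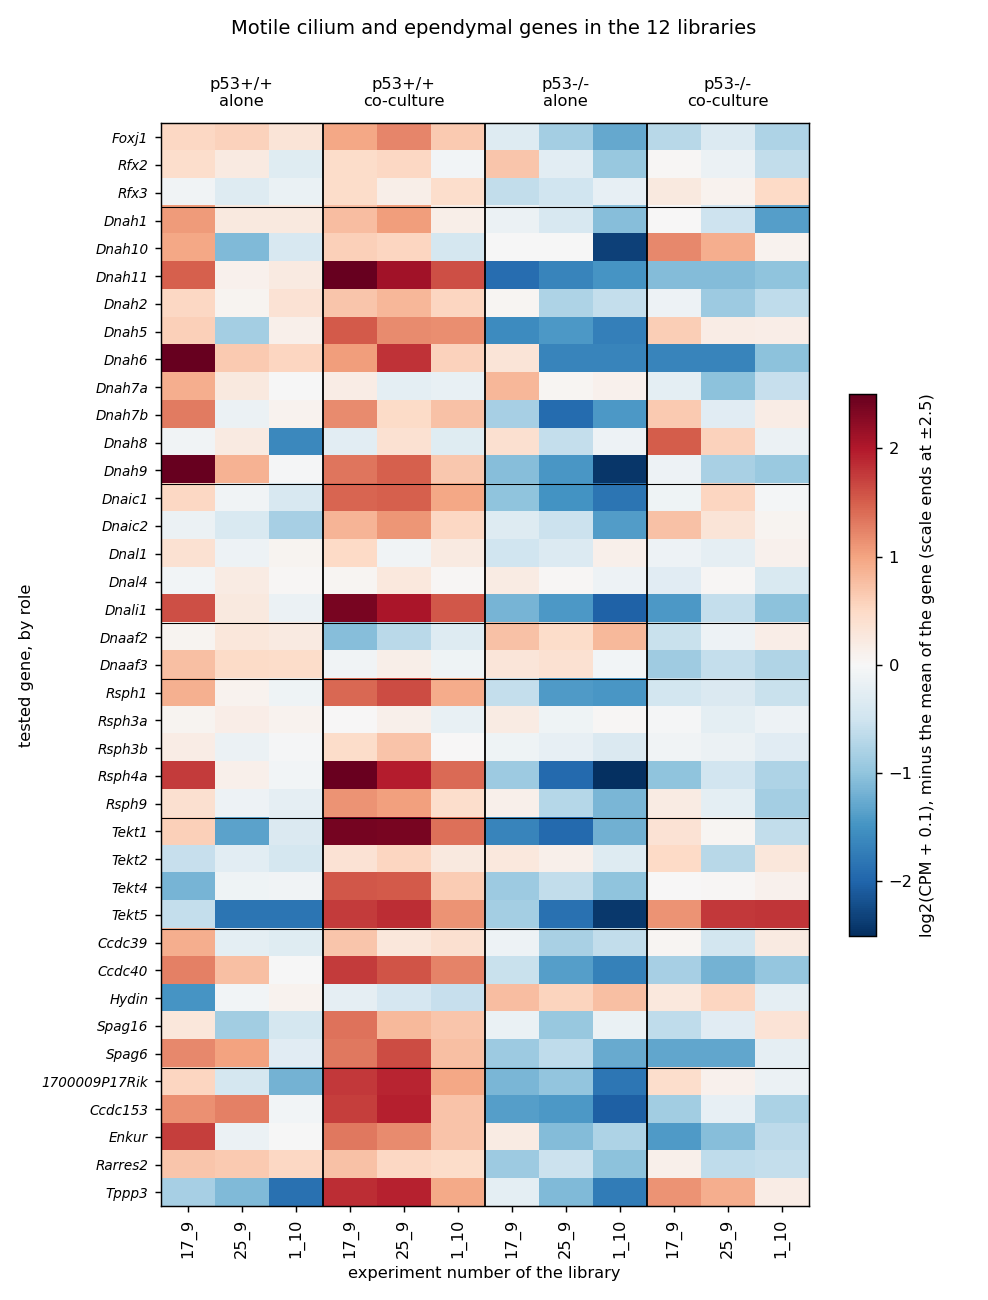
Level of the 39 tested cilium genes (rows, grouped by role between the horizontal lines) in the 12 libraries (columns, by group and experiment), as log2(CPM + 0.1) minus the mean of the gene, with colours ending at 2.5 on each side. The p53+/+ co-culture columns are red and the p53-/- alone columns blue for Dnah11, Dnali1, Rsph4a, Tekt1 and 1700009P17Rik, while Dnaaf2 is lower in co-culture and Hydin is redder in p53-/- NPCs alone, a difference that did not pass the test.

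These counts depended on single libraries. In NPCs alone, Foxj1, Rarres2, Ccdc153, Ccdc40, Dnah5, Dnah9, Dnah11 and Dnali1, 8 of the 12, kept their call when any 1 library was left out. The p53+/+ library of 17_9 decided Dnah7b, and Dnaic1, Rsph1 and Rsph4a were lost without it or without the p53-/- library of 25_9 or 1_10. In co-culture, Foxj1, Ccdc40, Dnah11, Dnali1, Rsph1 and Rsph4a, 6 of the 17, kept their call throughout, and each of the other 11 was lost without at least 2 of the libraries. The 12 genes lower alone became 8 when the p53+/+ alone library of 17_9 was left out and 13 without its p53-/- alone library. Without the whole experiment 17_9 they became 8, where 2% of all genes were called lower. The 17 lower in co-culture became 7 without the p53+/+ co-culture of 17_9, 7 without that of 25_9, 9 without the p53-/- co-culture of 25_9 and 7 without that of 1_10. For fits without 1 library, here and below, shares of all genes called are not set beside the counts. Such counts do not show whether a loss of calls was particular to the cilium genes. Without experiment 25_9, 1 gene was called lower alone and 0 in co-culture, where 0.777% and 0.290% of all genes were called lower. The medians of that fit over the tested cilium genes were -0.77 and -0.97.

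**Figure D2:**
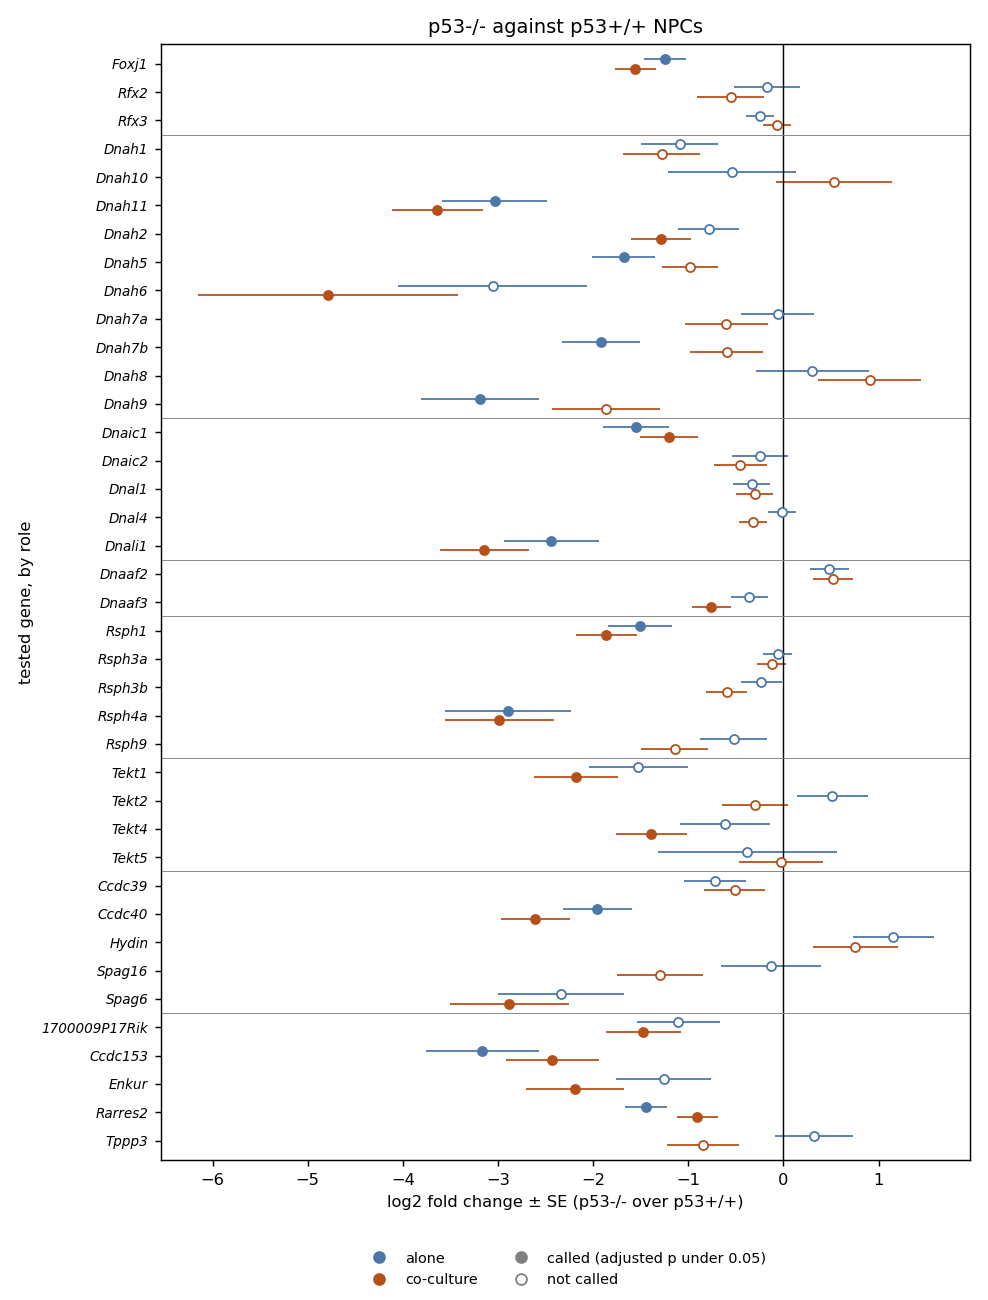
Log2 fold change (x axis, p53-/- over p53+/+) with its SE for each tested cilium gene, in NPCs alone (blue) and in co-culture (orange). Filled points passed an adjusted p of 0.05: 12 alone and 17 in co-culture, all to the left of 0.

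Genes of the set were also compared between co-culture and NPCs alone, in libraries that the p53 comparisons use as well. In p53+/+ NPCs, 13 of the 39 genes were higher in co-culture and 2 were lower, against 21.2% of all tested genes called higher and 18.3% called lower. In p53-/- NPCs, 9 were higher and 2 lower, against 18.8% and 17% of all genes. The higher shares, 33.3% and 23.1%, are read against backgrounds that are themselves large, since co-culture moved a wide part of the transcriptome. The genes higher in both genotypes were Rfx3, Dnah5, Dnaic1, Dnaic2, Tekt1, Tekt5, 1700009P17Rik and Tppp3. The overlap between genotypes over all tested genes was not counted. Dnah11, Dnali1, Rsph1, Tekt4 and Spag16 were called in p53+/+ and not in p53-/- NPCs, and Dnah7b in p53-/- and not in p53+/+ NPCs. The assembly factors Dnaaf2 and Dnaaf3 were lower in both genotypes.

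The median log2 fold change with co-culture was 0.49 in p53+/+ and 0.45 in p53-/- NPCs, against 0.00050 and -0.012 over all genes. All co-culture libraries lay above all alone libraries for 16 genes in p53+/+ NPCs (27.9% of all genes) and 15 in p53-/- NPCs (23.3% of all genes). With the experiment block, 18 and 12 genes were higher (against 26.2% and 24.3% of all genes) and 2 and 3 lower (against 24.1% and 23.2%). The reverse separation, co-culture below alone, held for 2 and 4 genes (25.7% and 21.5% of all). With the p53+/+ alone library of 17_9 left out, 18 genes were higher in p53+/+ co-culture, and without experiment 25_9 there were 3 in p53+/+ and 4 in p53-/- NPCs, where 8.77% and 9.76% of all genes were called higher. The call of Dnaaf3 in p53+/+ was lost when the alone library of 17_9 or 25_9 or the co-culture of 17_9 or 1_10 was left out. The calls of Dnali1, Rsph1 and Spag16 in p53+/+ were lost without the co-culture of 17_9 or the alone library of 25_9 or 1_10, and those of Dnali1 and Rsph1 also without the co-culture of 25_9. In p53-/- NPCs, 1700009P17Rik, Dnaic2 and Tekt1 were lost without the co-culture of 17_9, 1700009P17Rik also without the alone library of 1_10, and Tekt1 also without the alone library of 17_9 or 25_9. Endothelial markers rose with co-culture as well: 19 of 20 tested in p53+/+ and 18 in p53-/- NPCs, against 21.2% and 18.8% of all genes. Their summed level was 119 to 173 CPM in p53+/+ NPCs alone, 201 to 285 CPM in p53+/+ co-cultures, 118 to 269 CPM in p53-/- NPCs alone and 189 to 208 CPM in p53-/- co-cultures. Cdh5 was at 0.0993 CPM or less in every alone library and 18.8 to 37.2 CPM in every co-culture. The part of bmvEC transcripts in the co-culture values of the cilium genes was not tested.

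**Figure D3:**
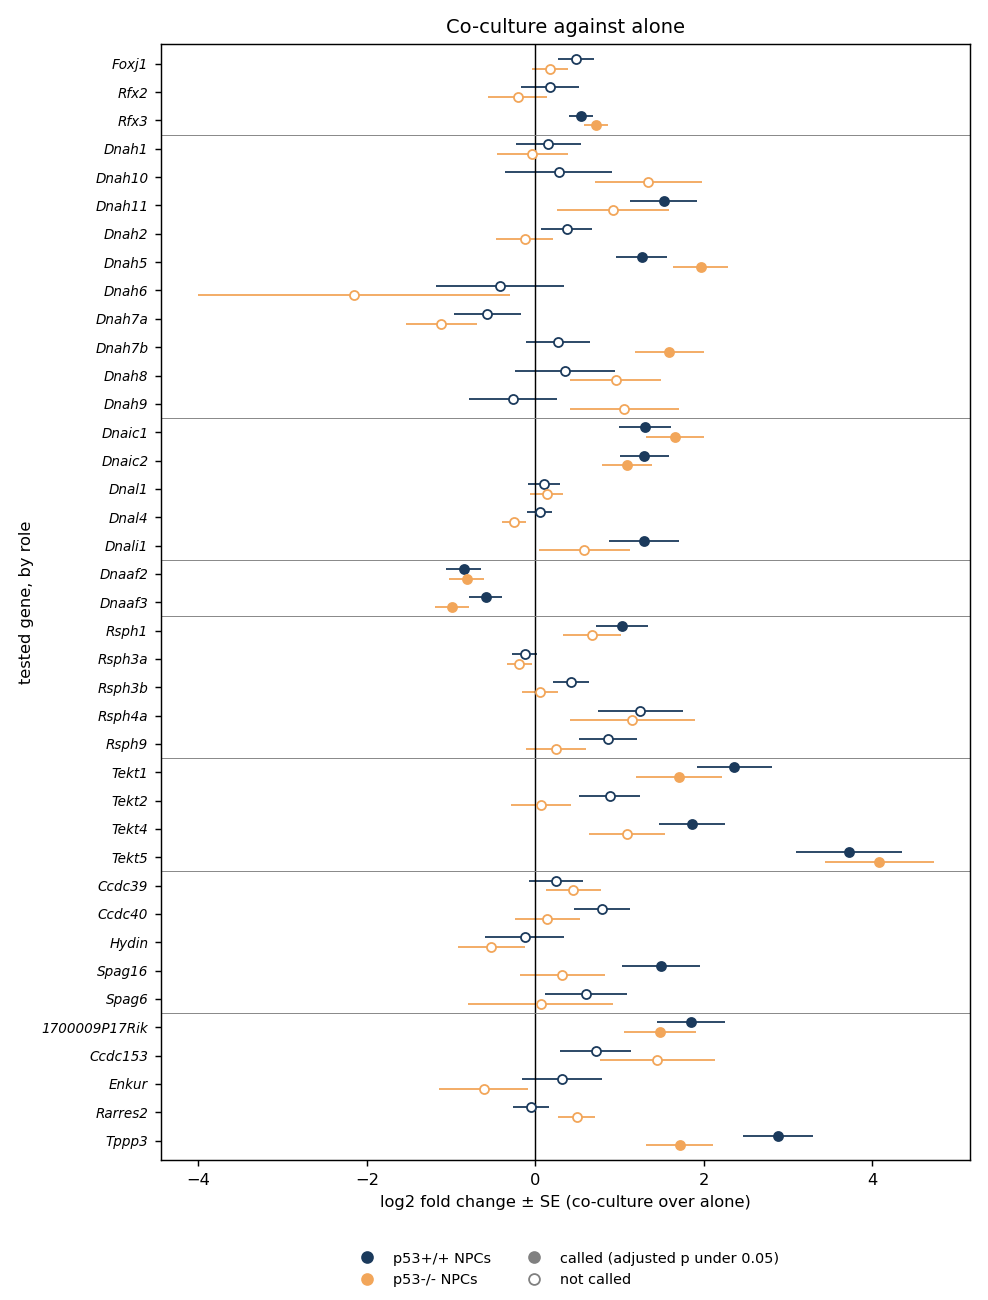
Log2 fold change (x axis, co-culture over alone) with its SE for each tested cilium gene, in p53+/+ NPCs (dark blue) and p53-/- NPCs (orange). Filled points passed an adjusted p of 0.05: 13 higher and 2 lower in p53+/+ NPCs, and 9 higher and 2 lower in p53-/- NPCs.

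Promoters of these genes were searched for the letters bound by their known regulators. Sequences were taken from RefSeq (GRCm38.p6, 250 bases before to 50 after each start), which held 38 of the 45 genes. 1700009P17Rik, Dnaaf1, Foxj1, Rarres2, Rsph1, Rsph4a and Tppp3 had no entry. The X-box of RFX factors, searched as GTTNCC, 2 free bases and GGNAAC, occurred in 0 of the 38 genes and in 0.529% of the 27025 genes of the table, on either strand. Looser forms, chosen after that search, were found more often: GTNNCC, 3 free bases and GNAAC in 6 genes (15.8%, against 2.49% of all genes) and GTNNCC, 2 free bases and GNAAC in 6 genes (15.8%, against 1.81%). The shorter X-box core GTTGCC was in 17 genes (44.7%, against 14.1%), and it can lie inside a match to the longer forms. The forkhead letters GTAAACA were in 2 genes (5.26%, against 4.05%), Dnah17 and Tekt3, neither of which was tested. Of the 15 genes with a promoter that were called lower with p53 loss in either culture, 6 held GTTGCC (40%). Of the 18 tested and not called lower, 10 did (55.6%). The looser form with 3 free bases was in 13.3% and 16.7% of these, and that with 2 in 20% and 16.7%. Calls here are without the experiment block. With it, Spag16 was lower with p53 loss in co-culture (adjusted p = 0.0370). The 6 genes shown were picked among those with a match. Dnaaf2, Hydin, Rsph3b, Tekt2 and Tekt4 also held a looser match within 50 bases of a start. Shown are 120 bases upstream of the start for 4 genes called lower with p53 loss (Enkur, Dnaic1, Dnah9 and Tekt1). The other 2 (Dnaic2 and Spag16) were higher in co-culture and not called lower with p53 loss. Matches to the looser forms or the core are in capitals.
Enkur, chr2:21205366-21205485, minus strand: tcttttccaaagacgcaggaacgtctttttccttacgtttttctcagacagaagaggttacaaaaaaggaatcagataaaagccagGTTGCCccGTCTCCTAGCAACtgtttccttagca
Dnaic1, chr4:41569674-41569793, plus strand: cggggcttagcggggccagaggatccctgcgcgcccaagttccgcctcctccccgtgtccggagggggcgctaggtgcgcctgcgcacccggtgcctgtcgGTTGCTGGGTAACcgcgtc
Dnah9, chr11:66168552-66168671, minus strand: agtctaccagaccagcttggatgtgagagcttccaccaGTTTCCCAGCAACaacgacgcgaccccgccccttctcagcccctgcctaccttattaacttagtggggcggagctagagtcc
Tekt1, chr11:72361883-72362002, minus strand: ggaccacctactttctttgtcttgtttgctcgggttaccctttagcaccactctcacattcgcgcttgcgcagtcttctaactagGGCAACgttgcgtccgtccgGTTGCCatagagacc
Dnaic2, chr11:114727299-114727418, plus strand: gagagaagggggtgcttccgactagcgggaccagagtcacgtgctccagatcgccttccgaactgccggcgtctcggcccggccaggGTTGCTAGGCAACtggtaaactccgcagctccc
Spag16, chr1:69826850-69826969, plus strand: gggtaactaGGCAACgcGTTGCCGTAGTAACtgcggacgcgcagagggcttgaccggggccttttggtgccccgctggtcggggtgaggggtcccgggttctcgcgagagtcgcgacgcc
Matches lie within 50 bases of the start in Enkur, Dnaic1, Tekt1 and Dnaic2, and farther upstream in Dnah9 and Spag16. A further looser match in Enkur crosses the start and is not in capitals. These are matches of letters in the reference sequence, and no binding was measured here.

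Among the regulators, Foxj1, the forkhead factor that switches on motile ciliogenesis, was lower with p53 loss. In p53+/+ NPCs alone it was 99.6, 104 and 87.1 CPM (experiments 17_9, 25_9 and 1_10, in this order here and below), and in p53-/- NPCs alone 55.4, 38.7 and 28.6 CPM. In p53+/+ co-cultures it was 137, 162 and 109 CPM, and in p53-/- co-cultures 43.2, 54.9 and 40.8 CPM. Every p53-/- library lay below every p53+/+ library, in both cultures. The log2 fold change with p53 loss was -1.24 ± 0.22 (SE) in NPCs alone, with an adjusted p of 0.00512, and -1.56 ± 0.22 in co-cultures, with an adjusted p of 0.00147. With co-culture, Foxj1 differed by 0.49 ± 0.21 in p53+/+ NPCs (adjusted p = 0.0862, 0.0220 with the experiment block), with all co-culture libraries above all alone libraries. In p53-/- NPCs the difference was 0.18 ± 0.22 (adjusted p = 0.557).

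Rfx3, an RFX factor of ciliary genes, was higher in co-culture and was not called with p53 loss. It was 56.5, 47.7 and 53.3 CPM in p53+/+ NPCs alone and 82.1, 66.0 and 81.4 CPM in co-culture, and 39.1, 42.4 and 51.5 CPM in p53-/- NPCs alone and 71.2, 63.7 and 84.1 CPM in co-culture. The co-culture libraries lay above the alone libraries in each genotype. Rfx3 was higher by 0.54 ± 0.15 in p53+/+ (adjusted p = 0.0103) and by 0.72 ± 0.15 in p53-/- NPCs (adjusted p = 0.00256). Its log2 fold changes with p53 loss were -0.24 ± 0.15 and -0.07 ± 0.14, and its groups overlapped. Rfx2, another RFX factor, was called in no comparison, and its log2 fold changes ranged from -0.56 to 0.18. Mcidas, a coactivator at the start of multiciliated cell differentiation, had 1 count in all 12 libraries together. A count this low leaves its level undetectable at this depth.

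**Figure D4:**
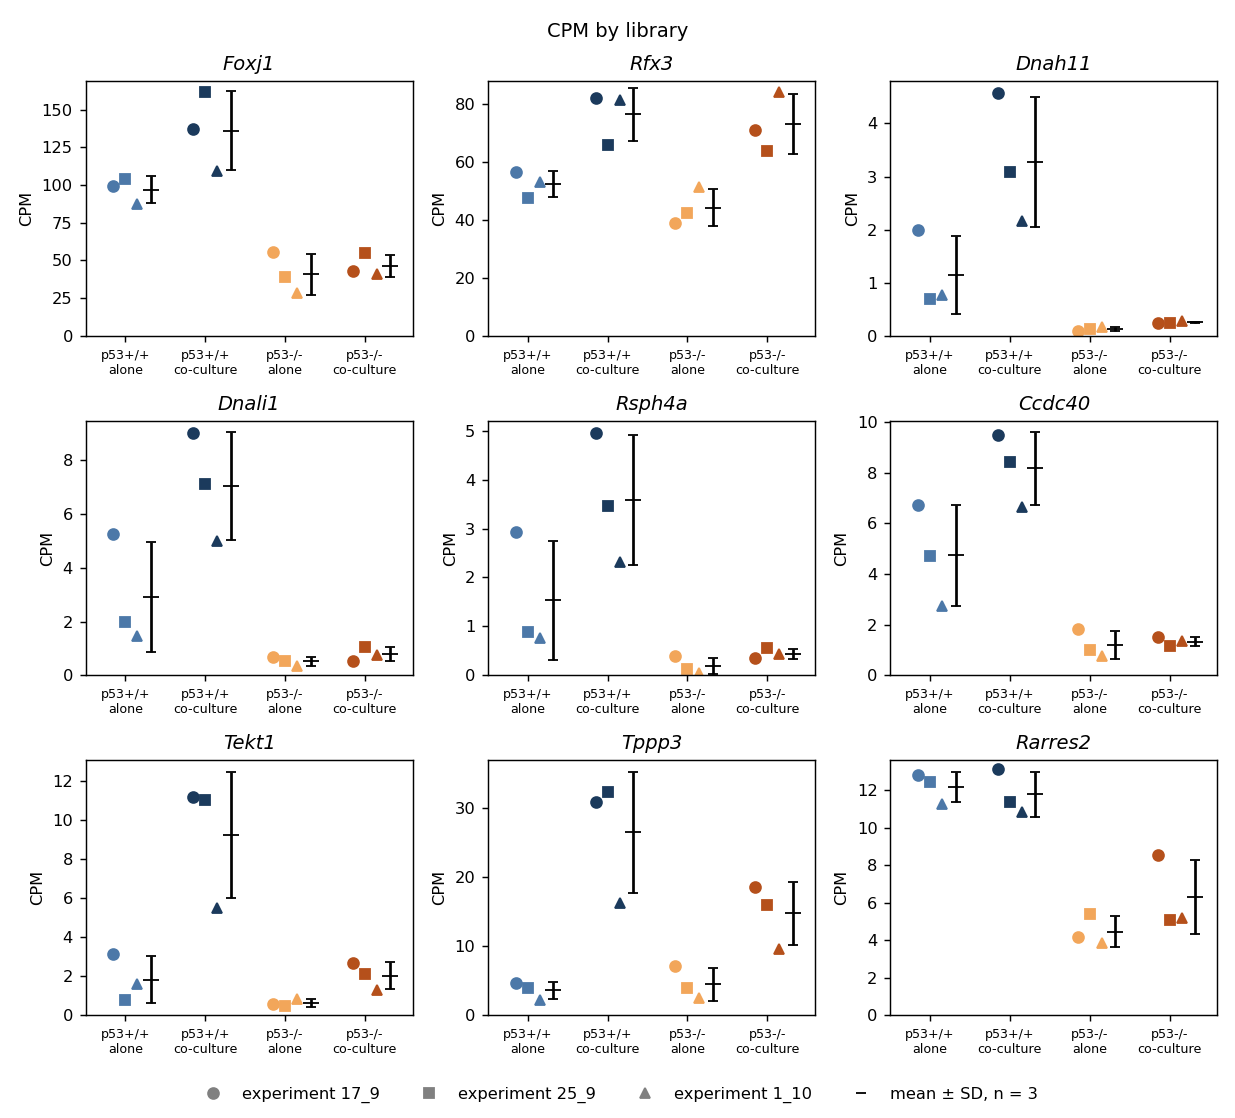
CPM (y axis, from 0) of 9 cilium genes in each library, by group, with the marker shape giving the experiment and the bars the mean ± SD of 3 libraries. Foxj1, Dnah11, Dnali1, Rsph4a, Ccdc40 and Rarres2 are lower in all p53-/- libraries than in the p53+/+ libraries of the same culture, Rfx3 and Tppp3 are higher in co-culture in both genotypes, and Tekt1 is highest in p53+/+ co-culture.

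The dynein heavy chains are the motors of the arms. Of 10 tested, 4 were lower with p53 loss alone (40%) and 3 in co-culture (30%), against 4.27% and 4.93% of all genes. Dnah11, an outer arm heavy chain, was 2.00, 0.695 and 0.763 CPM in p53+/+ NPCs alone and 4.57, 3.09 and 2.16 CPM in co-culture. In p53-/- NPCs it was 0.0969, 0.137 and 0.166 CPM alone and 0.250, 0.251 and 0.271 CPM in co-culture, levels that rest on 8 and 15 counts summed over 3 libraries. The p53-/- libraries lay well below the p53+/+ libraries, with log2 fold changes of -3.04 ± 0.56 (adjusted p = 0.00675) and -3.64 ± 0.47 (adjusted p = 0.000804). Dnah11 rose with co-culture in p53+/+ NPCs by 1.53 ± 0.40 (adjusted p = 0.00890).

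Dnah5, also an outer arm heavy chain, was 6.37, 2.28 and 4.58 CPM in p53+/+ NPCs alone and 12.4, 9.64 and 9.53 CPM in co-culture. Its p53-/- levels were 1.36, 1.5 and 1.22 CPM alone and 6.46, 4.82 and 4.72 CPM in co-culture. Both factors separated its libraries. It fell with p53 loss in NPCs alone (-1.68 ± 0.33, adjusted p = 0.00939) and was at -0.98 ± 0.29 in co-culture (adjusted p = 0.0582, 0.0101 with the block). Co-culture raised it by 1.26 ± 0.30 in p53+/+ (adjusted p = 0.00514) and by 1.96 ± 0.33 in p53-/- NPCs (adjusted p = 0.000772).

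Dnah9, the outer arm partner of Dnah5, was 11.3, 3.62 and 1.88 CPM in p53+/+ NPCs alone and 0.872, 0.637 and 0.277 CPM in p53-/- NPCs alone. It was 5.01, 5.64 and 3.16 CPM in p53+/+ co-cultures and 1.75, 1.05 and 0.976 CPM in p53-/- co-cultures. The library of experiment 17_9 was far above the others of p53+/+ alone, and even without it the genotypes did not overlap. The log2 fold change with p53 loss was -3.19 ± 0.62 alone (adjusted p = 0.00902) and -1.86 ± 0.57 for co-cultures (adjusted p = 0.0621, 0.00355 with the block). Dnah7b, an inner arm heavy chain, was 19.5, 7.05 and 8.29 CPM in p53+/+ NPCs alone and 4.36, 2.00 and 2.83 CPM in p53-/- NPCs alone, a fall of 1.91 on the log2 scale (SE 0.41, adjusted p = 0.0155). Its near copy Dnah7a was called in no comparison without the block, and reads of the 2 copies may be split between them, so both are uncertain.

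Dnah2, an inner arm heavy chain, was 2.18, 2.41 and 1.95 CPM in p53+/+ co-cultures and 1.20, 0.653 and 0.813 CPM in p53-/- co-cultures (-1.29 ± 0.32, adjusted p = 0.0266). Dnah6 was 0.545, 1.00 and 0.369 CPM in p53+/+ co-cultures and 0, 0 and 0.0542 CPM in p53-/- co-cultures. These are 39 counts against 1 count, a ratio of 38.4 with an exact 95% interval of 6.49 to 1550 that covers counting error only (adjusted p = 0.0486 for the fitted difference). Dnah1, Dnah8 and Dnah10 were called in no comparison without the block, and Dnah17, a sperm heavy chain, did not pass the filter, with 1 to 7 counts per group.

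Of the intermediate and light chains, Dnali1 and Dnaic1 were lower with p53 loss in both cultures, and Dnaic2, Dnal1 and Dnal4 in neither. Dnali1, a light intermediate chain of the inner arms, was 5.25, 1.99 and 1.47 CPM in p53+/+ NPCs alone and 8.99, 7.10 and 5.0 CPM in co-culture, against 0.678, 0.546 and 0.333 CPM and 0.551, 1.05 and 0.759 CPM in p53-/- NPCs. All p53-/- libraries lay below all p53+/+ libraries (alone -2.44 ± 0.50, adjusted p = 0.0120, and co-cultured -3.15 ± 0.47, adjusted p = 0.00214). Dnaic1, an intermediate chain of the outer arms, was 3.25, 2.08 and 1.68 CPM in p53+/+ NPCs alone and 6.32, 6.46 and 4.48 CPM in co-culture, against 1.07, 0.728 and 0.555 CPM and 2.05, 3.26 and 2.17 CPM in p53-/- NPCs. It was lower with p53 loss in each culture (-1.55 ± 0.35, adjusted p = 0.0193, and -1.20 ± 0.31, adjusted p = 0.0305) and higher with co-culture in each genotype (1.31 ± 0.31, adjusted p = 0.00523, and 1.66 ± 0.35, adjusted p = 0.00303).

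Dnaic2, the other outer arm intermediate chain, rose with co-culture from 6.25, 5.26 and 3.81 CPM to 12.5, 15 and 9.95 CPM in p53+/+ NPCs (1.29 ± 0.29, adjusted p = 0.00384). In p53-/- NPCs it rose from 5.52, 4.73 and 2.55 CPM to 11.5, 8.64 and 7.21 CPM (1.09 ± 0.29, adjusted p = 0.0120). Its log2 fold changes with p53 loss were -0.25 ± 0.30 and -0.45 ± 0.28, neither past the threshold. The light chain Dnal1, with 32.4 ± 7.64 to 43.8 ± 8.75 CPM by group (mean ± SD, n = 3), and Dnal4 were called in no comparison.

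The assembly factors moved the other way in co-culture. Dnaaf2 was 19.3, 22.5 and 21.7 CPM in p53+/+ NPCs alone and 8.77, 11.6 and 14.8 CPM in co-culture (-0.85 ± 0.21, adjusted p = 0.00680), and 30.8, 25.6 and 32.4 CPM against 12.6, 17 and 20.9 CPM in p53-/- NPCs (-0.82 ± 0.21, adjusted p = 0.00920). With p53 loss it was at 0.48 ± 0.21 alone (adjusted p = 0.177) and 0.52 ± 0.21 for co-cultures (adjusted p = 0.147, 0.0399 with the block). Dnaaf3 fell with co-culture by 0.59 on the log2 scale in p53+/+ (adjusted p = 0.0298) and by 0.99 in p53-/- NPCs (adjusted p = 0.00268). It was also lower with p53 loss in co-culture, 2.35, 2.91 and 2.60 CPM against 4.19, 4.96 and 4.16 CPM (-0.76 ± 0.20, adjusted p = 0.0371). Dnaaf1 did not pass the filter, with 4 to 21 counts per group, the most in p53+/+ co-cultures.

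The radial spokes pass signals from the central apparatus to the dynein arms. Rsph4a, a spoke head protein, was 2.94, 0.894 and 0.763 CPM in p53+/+ NPCs alone and 4.96, 3.46 and 2.32 CPM in co-culture, against 0.387, 0.137 and 0.0555 CPM and 0.350, 0.552 and 0.434 CPM in p53-/- NPCs. The genotypes did not overlap (alone -2.89 ± 0.66, adjusted p = 0.0221, and co-cultured -2.99 ± 0.57, adjusted p = 0.00838). Rsph1, another spoke head protein, was 5.75, 3.28 and 2.85 CPM in p53+/+ NPCs alone and 8.44, 9.69 and 5.95 CPM in co-culture, against 1.99, 1.09 and 1.05 CPM and 2.20, 2.36 and 2.06 CPM in p53-/- NPCs. Its groups were likewise apart by genotype (-1.51 ± 0.33, adjusted p = 0.0186, and -1.86 ± 0.32, adjusted p = 0.00484), and it rose with co-culture in p53+/+ NPCs (1.03 ± 0.31, adjusted p = 0.0184). Rsph9 was at -0.52 ± 0.35 alone and -1.14 ± 0.35 in co-culture with p53 loss (adjusted p = 0.0607, 0.00107 with the block). Rsph3a and Rsph3b, near copies whose reads may be split between them, were called in no comparison without the block. Rsph6a, a sperm counterpart of Rsph4a, did not pass the filter, with 1 to 4 counts per group.

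Tektins run along the microtubules of the axoneme. Tekt1 was 3.12, 0.745 and 1.58 CPM in p53+/+ NPCs alone and 11.2, 11 and 5.48 CPM in co-culture, and 0.581, 0.455 and 0.832 CPM in p53-/- NPCs alone and 2.65, 2.11 and 1.30 CPM in co-culture. Each p53+/+ co-culture lay above every library of the other groups. Tekt1 rose with co-culture in both genotypes (2.36 ± 0.45, adjusted p = 0.00137, and 1.71 ± 0.51, adjusted p = 0.0200). It was lower with p53 loss in co-culture (-2.18 ± 0.44, adjusted p = 0.0105) and at -1.53 ± 0.52 alone (adjusted p = 0.10, 0.0470 with the block).

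Tekt4 was 1.80, 1.77 and 0.895 CPM in p53+/+ co-cultures, against 0.187, 0.496 and 0.508 CPM alone and 0.551, 0.552 and 0.596 CPM in p53-/- co-cultures. It rose with co-culture in p53+/+ NPCs (1.86 ± 0.39, adjusted p = 0.00268) and was lower with p53 loss in co-culture (-1.39 ± 0.38, adjusted p = 0.0390). Tekt5 had the largest co-culture difference of the set: 0.250, 0.0496 and 0.0508 CPM in p53+/+ NPCs alone became 1.69, 1.82 and 1.05 CPM, and 0.194, 0.0455 and 0 CPM in p53-/- NPCs alone became 1.05, 1.71 and 1.73 CPM. The log2 fold changes were 3.73 ± 0.63 (adjusted p = 0.000617) and 4.08 ± 0.65 (adjusted p = 0.000552), and rest on 6 and 5 counts summed over the alone libraries. With p53 loss Tekt5 was at -0.38 ± 0.94 and -0.03 ± 0.44. Tekt2 was called in no comparison and Tekt3 did not pass the filter, with 4 counts in all.

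Ccdc40, which with Ccdc39 sets the spacing of inner arms and spokes along the axoneme, was 6.75, 4.72 and 2.75 CPM in p53+/+ NPCs alone and 9.48, 8.42 and 6.64 CPM in co-culture. Its p53-/- levels were 1.84, 1.00 and 0.776 CPM alone and 1.5, 1.15 and 1.35 CPM in co-culture. No p53-/- library reached a p53+/+ library (alone -1.95 ± 0.36, adjusted p = 0.00754, and co-cultured -2.61 ± 0.36, adjusted p = 0.00135). Its partner Ccdc39 was called in no comparison (-0.72 ± 0.33, adjusted p = 0.204, and -0.51 ± 0.32, adjusted p = 0.349).

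In the central apparatus, Spag6 was 0.817, 1.05 and 0.527 CPM in p53+/+ co-cultures and 0.0501, 0.0502 and 0.217 CPM in p53-/- co-cultures, 48 counts against 6 (-2.88 ± 0.63, adjusted p = 0.0152). In NPCs alone it was at -2.34 ± 0.66 (adjusted p = 0.0548, 0.0251 with the block). Spag16 rose with co-culture in p53+/+ NPCs, from 0.562, 0.199 and 0.305 CPM to 1.31, 0.864 and 0.790 CPM (1.49 ± 0.46, adjusted p = 0.0213). Hydin was called in no comparison, and its level was higher in each p53-/- alone library (0.969, 0.819 and 0.943 CPM) than in the p53+/+ alone libraries (0.125, 0.496 and 0.559 CPM, difference 1.16 ± 0.42, adjusted p = 0.122). Spag17 did not pass the filter, with 1 to 8 counts per group.

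Of the 5 other ependymal and cilium genes, 2 were lower with p53 loss alone (40%) and 4 in co-culture (80%), against 4.27% and 4.93% of all genes. Rarres2, which encodes the secreted protein chemerin, was 12.8, 12.5 and 11.3 CPM in p53+/+ NPCs alone and 13.1, 11.4 and 10.9 CPM in co-culture, against 4.17, 5.37 and 3.83 CPM and 8.56, 5.07 and 5.20 CPM in p53-/- NPCs. Its p53+/+ libraries differed little between cultures (-0.05 ± 0.21, adjusted p = 0.875) and its p53-/- libraries were lower in each (-1.45 ± 0.22, adjusted p = 0.00195, and -0.91 ± 0.22, adjusted p = 0.0230). Ccdc153, a coiled-coil protein used as an ependymal marker, was 1.31, 1.44 and 0.508 CPM in p53+/+ NPCs alone and 2.02, 2.37 and 0.948 CPM in co-culture, against 0.145, 0.137 and 0.0555 CPM and 0.250, 0.452 and 0.271 CPM in p53-/- NPCs. The genotypes were again apart (-3.17 ± 0.59, adjusted p = 0.00765, with 7 counts in p53-/- NPCs alone, and -2.43 ± 0.49, adjusted p = 0.0102).

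Enkur, a protein inside ciliary microtubules, was 6.92, 6.28 and 4.53 CPM in p53+/+ co-cultures and 0.951, 1.26 and 1.68 CPM in p53-/- co-cultures (-2.19 ± 0.51, adjusted p = 0.0216). In NPCs alone it was at -1.26 ± 0.50 (adjusted p = 0.146), with 9.25 CPM in the p53+/+ library of experiment 17_9 and 2.43 and 2.69 CPM in the others. 1700009P17Rik rose with co-culture from 4.06, 2.04 and 1.17 CPM to 9.69, 10.6 and 5.53 CPM in p53+/+ NPCs (1.85 ± 0.40, adjusted p = 0.00308) and from 1.21, 1.37 and 0.721 CPM to 3.80, 3.01 and 2.49 CPM in p53-/- NPCs (1.48 ± 0.43, adjusted p = 0.0173). It was lower with p53 loss in co-culture (-1.47 ± 0.39, adjusted p = 0.0361) and at -1.11 ± 0.44 alone (adjusted p = 0.146, 0.0278 with the block).

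Tppp3, a tubulin polymerization promoting protein, was 4.69, 3.87 and 2.24 CPM in p53+/+ NPCs alone and 30.8, 32.2 and 16.3 CPM in co-culture. Its p53-/- levels were 7.07, 3.87 and 2.44 CPM alone and 18.5, 16.0 and 9.59 CPM in co-culture. Co-culture libraries lay above alone libraries in each genotype (2.88 ± 0.41, adjusted p = 0.000192, and 1.71 ± 0.40, adjusted p = 0.00535). With p53 loss it was at 0.32 ± 0.41 alone and -0.85 ± 0.37 in co-culture (adjusted p = 0.178, 0.00320 with the block).

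With the experiment block, further values passed the test. With p53 loss these were Dnah1 (0.0161 alone and 0.00484 in co-culture), Dnah6 alone (0.0287), Dnah7b (0.0225), Rsph3b (0.0397) and Spag16 (0.0370) in co-culture, all lower and all as adjusted p. With co-culture in p53+/+ NPCs they were Rsph4a (0.00499), Rsph9 (0.00182), Ccdc40 (0.00578) and Ccdc153 (0.0337), all higher. In p53-/- NPCs under the block, Dnah10 (0.0212), Rsph1 (0.0478) and Ccdc153 (0.0274) were higher and Dnah7a (0.0118) was lower.

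Whether the effect of co-culture differed between genotypes was tested as the interaction, where 0 of 39 genes passed the test in edgeR, against 0% of all genes higher and 0.0364% lower, and 0 with the block, against 0.0218% and 0.0582%. At an unadjusted p under 0.05 there was 1, Dnah7b (difference of log2 fold changes 1.32 ± 0.56, adjusted p = 0.700), against 976 of all genes. DESeq2 called 0 without the block and 2 with it: Dnah7b (1.24 ± 0.29, adjusted p = 0.00452), whose co-culture rise was larger in p53-/- NPCs, and Tppp3 (-1.12 ± 0.28, adjusted p = 0.00935), whose rise was larger in p53+/+ NPCs. The median difference over the 39 genes was -0.35, against -0.02 over all genes.

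A second list of 81 motile cilium genes outside the set, 59 of them tested, was set beside it. It was chosen with earlier results of these data known and read in the same libraries, so it is no independent support. With p53 loss, 10 were lower and 0 higher alone, and 35 were lower and 1 higher in co-culture, with medians of -0.93 and -1.31. The lower genes were 16.9% and 59.3% of those tested, against 4.27% and 4.93% of all genes. All 10 were among the 35. With the block, 27 and 42 were lower, against 9.33% and 10.9% of all genes. Without single libraries the 35 became 11 (without the p53+/+ co-culture of 17_9), 16 (without that of 25_9), 13 (without the p53-/- co-culture of 25_9) or 16 (without that of 1_10). The 10 became 3 without the p53+/+ alone library of 17_9, 5 without the p53-/- alone library of 1_10 and 4 without that of 25_9, and without experiment 25_9 0 were called in either culture. Among the best covered were Iqcg, of the nexin-dynein regulatory complex (alone -1.40 ± 0.27, adjusted p = 0.00801, and co-cultured -1.61 ± 0.26, adjusted p = 0.00349), and Stk36, a kinase needed for the central apparatus (alone -0.82 ± 0.21, adjusted p = 0.0363, and co-cultured -0.90 ± 0.21, adjusted p = 0.0194). Poc1a, a centriole protein named here after its values were seen, was the 1 higher. With co-culture, 23 were higher and 3 lower in p53+/+ and 6 higher and 3 lower in p53-/- NPCs, and all 6 were among the 23. Higher genes made up 39% of those tested in p53+/+, against 21.2% of all genes, and 10.2% in p53-/- NPCs, below the 18.8% of all genes. The 23 became 35 without the p53+/+ alone library of 17_9, 12 without that of 25_9, 13 without that of 1_10, 13 without the p53+/+ co-culture of 17_9 and 14 without that of 25_9, and the 6 became 11 without the p53+/+ alone library of 17_9.

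**Figure D5:**
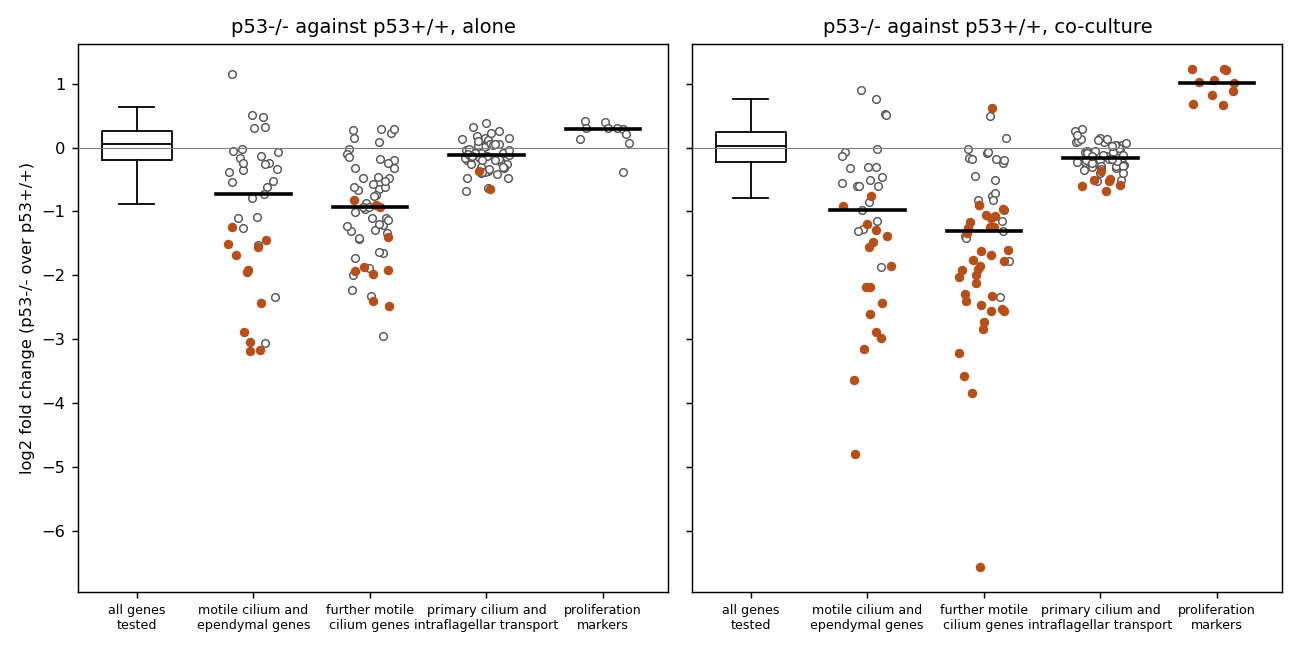
Log2 fold change with p53 loss (y axis) in NPCs alone (left) and in co-culture (right) for 4 gene lists, 1 point per tested gene, filled where called, with a bar at the median, beside a box of all tested genes (median, quartiles and whiskers from the 5th to the 95th percentile). The medians of the cilium genes of the set and of the second list lie below 0 in both panels (-0.72 and -0.93, then -0.98 and -1.31), that of primary cilium genes lies near 0, and the proliferation markers lie above 0 in co-culture.

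Genes of the primary cilium and of intraflagellar transport, which nearly all cells use, had smaller median differences. Of 57 tested, 2 were lower alone (Kif3b, a motor subunit of intraflagellar transport, by 0.37 on the log2 scale, and Wdr35, a transport component, by 0.65) and 7 in co-culture, and 0 were higher, with medians of -0.11 and -0.16. The lower shares were 3.51% and 12.3%, against 4.27% and 4.93% of all genes. Among 22 regulators of multiciliation and centriole amplification, 15 were tested. In p53+/+ NPCs, 1 rose and 8 fell with co-culture (53.3% lower, against 18.3% of all genes), and 0 were higher and 6 lower in p53-/- NPCs (40%, against 17%). With p53 loss, 0 were called alone. In co-culture, Plk4 (1.13 ± 0.25, adjusted p = 0.0164), Stil (1.17 ± 0.24, adjusted p = 0.0109) and Sass6 (0.81 ± 0.19, adjusted p = 0.0198), which build centrioles in dividing cells too, were higher in p53-/- NPCs and Ulk4 was lower (-1.03 ± 0.19, adjusted p = 0.00693).

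Other programmes moved in the same libraries. All 10 proliferation markers were called higher in p53-/- than in p53+/+ co-cultures (median 1.02), against 3.24% of all genes. In NPCs alone, 0 were called. Their summed level was 3093 to 4102 CPM in p53+/+ NPCs alone, 903 to 1515 CPM in p53+/+ co-cultures, 3556 to 4326 CPM in p53-/- NPCs alone and 1884 to 3032 CPM in p53-/- co-cultures. All 8 astroglial markers were called higher in co-culture in each genotype, against 21.2% (p53+/+) and 18.8% (p53-/-) of all genes. Gfap rose by 4.55 ± 0.35 in p53+/+ and by 4.59 ± 0.35 in p53-/- NPCs, and for p53 loss its values were -0.93 ± 0.30 alone (adjusted p = 0.0873, 0.000794 with the block) and -0.90 ± 0.30 for co-cultures (adjusted p = 0.0851, 0.00105 with the block). Over the 8 astroglial markers, the median with p53 loss was -0.49 alone and -0.48 in co-culture. In every experiment 7 and 8 were lower, against 3333 and 4154 of all 13745 genes. Gja1, an astroglial gap junction protein, was called lower in each culture (-0.84 ± 0.14, adjusted p = 0.00440, and -0.96 ± 0.14, adjusted p = 0.00227). With the block, 4 and 5 of the 8 were lower, against 9.33% and 10.9% of all genes. Of 8 tested mural and fibroblast markers, 2 were higher with p53 loss alone, Pdgfrb (1.16 ± 0.32, adjusted p = 0.0471) and Col1a1 (1.40 ± 0.38, adjusted p = 0.0471), against 2.02% of all genes, and 0 were called in co-culture, with list medians of 0.72 and 0.66. Gja1, Pdgfrb and Col1a1 were named after their values were seen. Of 20 tested endothelial markers, 0 were called with p53 loss in either culture. In co-culture their median was -0.31, with 17 below 0 and 3 above, while alone 9 lay below 0 and 10 above. The part of proliferation, astroglial state, or mural, fibroblast or endothelial cells in the cilium values was not tested.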

How the data were processed

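RNA-seq counts of 12 mouse NPC libraries were used, with 3 per group. Per the labels and the submitters' processing notes, mRNA libraries were made with a stranded kit, reads were aligned to mm9 with TopHat2 2.0.11 and counted per gene with HTSeq 0.6.1, and the authors deposited raw counts. Not given in the sources used here were the strand setting and annotation version, so overlapping and antisense genes, and near copies, are uncertain. Library totals were 16509710 to 22245224 counts, which limits precision for genes with few counts. Of 24108 listed symbols, 27 were turned into dates and none is named.

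Counts were filtered to 13745 genes with filterByExpr and scaled by TMM in edgeR 4.0.16 under R 4.3.3, and the quasi-likelihood F test was run with 1 coefficient per group over all 12 libraries. The 5 comparisons were tested, each adjusted by Benjamini-Hochberg over all 13745 genes at 0.05. The SE is the log2 fold change divided by the square root of F. CPM were computed here. Signs within experiments used log2(CPM + 0.5). The labels do not say whether libraries of a group come from separate animals, so p-values measure the spread between these libraries.

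The main fit did not use the experiment. In the experiment block and the signs within experiments, libraries with the same experiment number were taken as paired. Deviations from group means correlated in all 18 same-number library pairs (r from 0.128 to 0.618) and at -0.608 to 0.241 in 36 others. Deviations of a gene sum to 0 within a group, so positive same-number values pull the others down. The 36 are thus no separate support for the pairing. Same-group libraries differed by 13.3 to 62.8 times the counting variance, so none is a copy. The genes, lists, roles and tests were chosen with earlier results of these data known. The genes named are the regulators, the other ependymal genes and Hydin, all called with p53 loss, up to 4 per role called in co-culture, the member with most counts per role, and those the text accounts for as not called or not tested. From other lists, up to 4 called genes with the highest CPM, and fixed markers, are named, and 1 such gene is not reported here. Alternatives were other scalings, DESeq2 1.42.0, the experiment block, other filters, only the groups compared, a threshold of 0.01, and fits without each library and experiment. The fit was tested on simulated counts.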

Additional observations from a re-analysis of the deposited data

How the results depend on the processing

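All 55 called values of named genes kept their sign under every alternative that could be computed, and 55 of 55 kept their call with the experiment block. The experiment block changed no other call than those given beside the genes. It gave 1 gene higher, not 0, with p53 loss in co-culture. The scalings shifted the all-gene median by at most 0.0688 (log2). With at least 10 counts in every library, 24 of the 39 genes remained for testing, and the counts were 8 higher with co-culture in p53+/+, and 7 (alone) and 10 (co-culture) lower with p53 loss. A threshold of 0.01 gave 7 and 6 lower with p53 loss and 1 lower with co-culture in p53+/+, and upper-quartile scaling also gave 1 there. A fit of only the groups compared gave 5 lower with p53 loss alone, and cannot be made for the interaction. DESeq2 with the block gave 20 lower and 1 higher with p53 loss alone, 1 higher in co-culture, and 1 higher and 1 lower in the interaction. Leaving out 1 library or 1 experiment gave 3 to 18 higher and 0 to 2 lower with co-culture in p53+/+, 4 to 9 higher and 0 to 3 lower in p53-/-, 1 to 13 lower with p53 loss alone, 0 to 20 lower in co-culture, and 0 higher with p53 loss or in the interaction throughout. The lowest values came without experiment 25_9, where 8 of the 55 called values stayed past the threshold and 47 kept only their direction. Few counts limit Dnah6, Dnah11, Rsph4a, Spag6, Ccdc153 and Tekt5, whose lowest groups hold 1 to 12 counts. Shares of all genes called under these fits are not set beside the counts here. Without those shares, the counts cannot show whether a change between fits was particular to the cilium genes. The cause of the changes between fits was not tested, except that the stricter filter tests fewer genes and the fits without libraries use fewer samples.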

Other observations

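Of 20 further ependymal markers, 16 were tested. With p53 loss, Pltp, a phospholipid transfer protein, was lower, at -1.44 ± 0.28 in NPCs alone (adjusted p = 0.00902) and at -1.86 ± 0.28 in co-cultured NPCs (adjusted p = 0.00245), and Gm973 was lower in each (-0.94 ± 0.16, adjusted p = 0.00370, and -0.73 ± 0.15, adjusted p = 0.0115). In co-culture Dynlrb2, a dynein light chain that is also in the second cilium list, was lower (-1.05 ± 0.30, adjusted p = 0.0486) and Celsr3, a cadherin of planar polarity, was higher (1.16 ± 0.31, adjusted p = 0.0380). With co-culture, the surface marker Cd24a was lower in both genotypes (-1.33 ± 0.17 and -1.13 ± 0.16), as was Anxa3 (-1.45 ± 0.19 and -1.36 ± 0.19). Celsr2, which orients ependymal cilia, was higher in both (0.89 ± 0.14 and 0.98 ± 0.14), as was Cnp (1.20 ± 0.21 and 1.23 ± 0.21). Of the 16, 8 were higher (50%) and 2 lower (12.5%) with co-culture in p53+/+ NPCs, against 21.2% and 18.3% of all genes. In p53-/- NPCs, 7 were higher (43.8%) and 2 lower (12.5%), against 18.8% and 17%. With p53 loss alone, 2 were lower (12.5%, against 4.27% of all genes) and 0 higher. For p53 loss in co-culture, 3 were lower (18.8%, against 4.93%) and 1 higher (6.25%, against 3.24%).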
